A study of Mus musculus with 15 samples.

Results

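The comparison of CpG against media asked how mouse B cells change their transcripts when the DNA sensor TLR9 is engaged. It covers 6 of the 15 arrays of the study, the 3 whose titles name CpG treatment and the 3 whose titles name media alone, and all genes of the deposited table. The cells were B cells of AM-14 mice, which carry a transgenic B cell receptor that binds self IgG; all groups share it. Media cells received no stimulus. CpG cells received the phosphorothioate oligodeoxynucleotide 1826, a synthetic TLR9 ligand. A further 3 arrays of cells given F(ab')2 goat anti-mouse IgM, which crosslinks the B cell receptor, served to ask which changes differed from those of receptor stimulation. The remaining arrays, PL2-3 and anti-IgM with CpG, were not themselves compared with CpG. They entered the estimate of spread and of the labelling kit, the constant added to signals, the choice of probe set and the signal filter. No dose, time of stimulation or animal age is given in the sources used here, nor whether replicates came from separate animals or cultures. The p-values therefore measure only the spread between arrays, which may be technical, and 3 arrays per group limit the precision. Replicates 1 and 2 of each group were labelled with an Enzo kit and replicate 3 with an Ambion kit, and the kit was a term of the model.

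TLR9 sits in endosomes and binds DNA rich in unmethylated CpG motifs. It signals through the adaptor MyD88 to NF-kB, to AP-1 factors and to interferon regulatory factors. In B cells this leads to cytokine secretion, expression of costimulatory molecules, growth and entry into the cell cycle, without a need for antigen.

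Values are MAS5 signals, a linear measure of the brightness of a probe set. Changes are differences of log2(signal + 75.2) between CpG and media, each with its standard error from the limma fit (n = 3 arrays a group), so 1 unit is a doubling and the changes of dim genes are understated. "Rose" and "fell" are used of genes with a limma adjusted p under 0.05, by Benjamini-Hochberg over the 13160 genes tested. With CpG, 3955 genes changed, which is 30.1% of those tested. Of all tested genes 13.1% rose and 16.9% fell, and these shares are the background for every count of a gene list below. Among them, 742 rose and 1298 fell at least 2-fold, 84 and 212 at least 4-fold, and 16 and 27 at least 8-fold. In 3648 of the 3955 genes the 3 CpG arrays did not overlap with the 3 media arrays. Over all 13160 tested genes, the CpG arrays lay wholly above the media arrays in 2096 and wholly below in 3242. The calls rest on these same arrays, so the separation of called genes is not separate evidence. The median change over all tested genes was -0.21, so the split of directions depends on the scaling. Rising genes made up 43.7% of the calls as deposited, 51% after quantile normalization and 74.6% after every array was shifted to the same median.

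**Figure D1:**
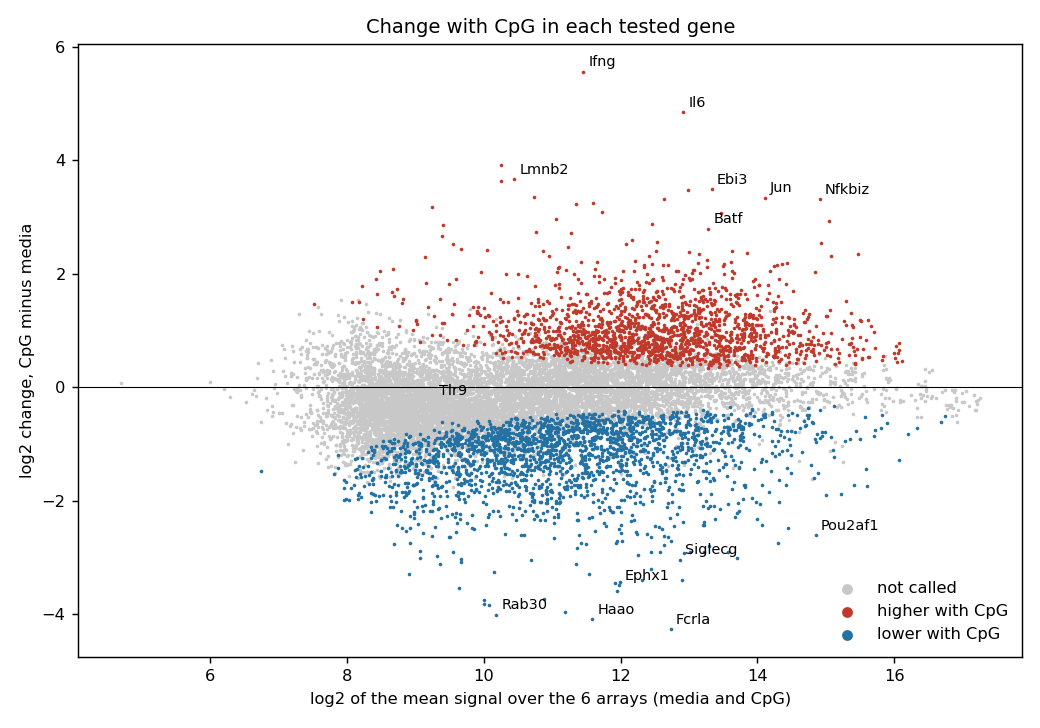
Change with CpG (log2 units, vertical) against the log2 mean signal over the 6 media and CpG arrays (horizontal) for each tested gene; red genes rose, blue genes fell and grey genes were not called. Ifng and Il6 lie highest, at 5.56 and 4.85, Fcrla lies lowest among the labelled genes, at -4.26, and Tlr9 itself lies among the grey genes.

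The arrays were not alike in every respect. Beta-actin has control probe sets at either end of its transcript, and the signal of the 5' set over that of the 3' set, a measure of transcript completeness, was 0.440 to 0.559 on the 4 Enzo arrays of media and CpG, 0.153 on the Ambion media array and 0.201 on the Ambion CpG array. All 3 arrays of anti-IgM+CpG had ratios of 0.105 to 0.193, against the kit named for replicates 1 and 2, and without these arrays 4579 genes were called. The Ambion array correlated less with the Enzo arrays of its group than these did with each other in media (0.920 and 0.899 against 0.952), CpG (0.932 and 0.934 against 0.958), anti-IgM (0.937 and 0.919 against 0.955) and PL2-3 (0.928 and 0.904 against 0.949). Without media replicate 3 2871 genes were called. The summed signal of 19 mitosis genes was 151400 on media replicate 3, against 59140 and 56350 on the other media arrays and 24890 to 36300 on the CpG arrays. The labelled cell type was borne out by high signals of Cd79a, Cd79b and Ms4a1, with media signals from 38626 to 95400. Transcripts of other cells were present too. The summed signal of 19 monocyte, macrophage and neutrophil markers was 151500 to 271200 in media and 65020 to 126100 with CpG, and 5 of them fell. In the T cell list 7 of 14 markers fell, in the NK cell list 4 of 11 and in the erythroid list 4 of 6. Of 8 plasmacytoid and dendritic cell markers, Bst2 rose, which is also interferon-stimulated, and Itgax fell. No marker of these lists other than Bst2 rose. Of the defining markers, Itgam was at 305 to 525 in media, Ncr1 at 211 to 500 and Cd4 at 41 to 250, and none was at 0. Without media replicate 3 the falls numbered 2 in the myeloid list, 1 in the NK cell list and 1 in the erythroid list. The myeloid falls numbered 3, 8 and 2 without CpG replicates 1, 2 and 3, the NK falls 1 without CpG replicate 2, and the erythroid falls 2 without CpG replicate 1 or 3. Without the anti-IgM+CpG arrays 10 myeloid and 6 erythroid markers fell. The part of these cells in the results was not tested. In bulk samples fewer cells of a type and less RNA per cell cannot be told apart.

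The TLR9 apparatus itself was not raised. Tlr9 had signals of 524, 732 and 633 in media and 761, 882 and 186 with CpG, a change of -0.24 ± 0.51 (limma adjusted p = 0.76). Its groups overlapped, the Ambion CpG array being lowest and the Enzo CpG arrays highest. Of 16 genes for TLR9 delivery and endosomal handling, 8 fell and 0 rose, with a median of -0.38, or -0.16 relative to all tested genes. Slc15a4, a lysosomal transporter needed for endosomal TLR responses, was at 4529, 6326 and 6808 in media and 2316, 1986 and 3219 with CpG, and fell by 1.21 ± 0.20 (limma adjusted p = 0.000288). All 3 CpG arrays lay below all 3 media arrays. The mean of its probe sets gave -0.74 (limma adjusted p = 0.0577). The proton pump subunit Atp6v0d1 also fell (-0.89 ± 0.15). The chaperone Unc93b1, which carries TLR9 to the endosome, was called lower by a small amount (-0.40 ± 0.13), a call lost without any 1 of the media replicates 1 and 2 or the CpG arrays (limma adjusted p from 0.0601 to 0.114). After the arrays were shifted to the same median its value was -0.04, and 1 of the 16 genes was called lower. Without any 1 of the CpG arrays the count was 5. No gene of the list was higher at an unadjusted limma p under 0.05.

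Other Toll-like receptors moved in both directions. Tlr7, the endosomal sensor of single-stranded RNA, was at 1283, 878 and 696 in media and 2957, 2613 and 2316 with CpG, and rose by 1.43 ± 0.26 (limma adjusted p = 0.000657). The CpG signals were all above the media signals. Tlr1 and Tlr6, surface partners of TLR2, changed by -0.93 ± 0.19 and -1.34 ± 0.30, and Cd180, a TLR-like receptor of B cells, by -1.33 ± 0.24. Of 13 receptors and cofactors, 1 rose and 4 fell. On the Enzo arrays alone the fall of Tlr6 was -0.99 (limma adjusted p = 0.0772).

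Among 24 genes of MyD88 signalling 4 rose, 3 fell and 17 were not called, shares near the background. The rises numbered 2 without media replicate 1, media replicate 3 or CpG replicate 3, and 1 without CpG replicate 1. Myd88, the adaptor, had signals of 3325, 3586 and 3576 in media and 3010, 3171 and 2513 with CpG (-0.27 ± 0.16, limma adjusted p = 0.222). Map3k8, the kinase that feeds ERK, rose by 1.46 ± 0.33, and Btk, a kinase shared with the B cell receptor, fell by 1.42 ± 0.20. Irak3, an inhibitory member of the IRAK kinases, was lower too (-1.08 ± 0.28), a call lost after the shift to the same median (limma adjusted p = 0.112).

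The NF-kB system changed most at Nfkbiz. Nfkbiz, a nuclear IkB protein that promotes transcription of Il6 and other secondary genes, was at 7182, 5745 and 4013 in media and 56676, 63991 and 46968 with CpG. It rose by 3.32 ± 0.20 (limma adjusted p = 1.59e-07), and every CpG array was above every media array. Nfkb2, the precursor of p52, rose by 0.95 ± 0.19, from 10656 to 11439 in media to 20551 to 22259 with CpG. Nfkbib rose by 1.27 ± 0.13 on its brightest probe set, but another probe set of the gene gave -0.003. Rel (0.05 ± 0.22), Relb (-0.002 ± 0.22) and Nfkbia (0.29 ± 0.17) did not pass the test. The other 4 probe sets of Nfkbia gave 0.46 to 1.16, and limma called it higher with the mean of its probe sets (0.63, adjusted p = 0.00544), after quantile normalization (0.41, 0.00458) and after the shift to the same median (0.66, 0.0347). In all, 3 of 10 NF-kB subunits and IkB proteins rose and 0 fell by limma, and 0 were lower at an unadjusted p under 0.05. After the shift to the same median 6 rose.

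Feedback inhibitors split into genes that rose and genes that fell, 7 of each among 27. The balance moved with the scaling, to 10 rises and 8 falls after quantile normalization and 10 and 3 after the shift to the same median. Socs3, which restrains cytokine receptor signalling, was at 2753, 2577 and 1561 in media and 11473, 11299 and 8259 with CpG, and rose by 2.16 ± 0.21 (limma adjusted p = 3.63e-06). Socs1, a restraint on interferon signalling, was at 368, 270 and 406 in media and 5065, 3096 and 1278 with CpG, a rise of 2.74 ± 0.35. In both genes the groups did not overlap, and in both the Ambion CpG array was the lowest of the CpG arrays. The ubiquitin editor Tnfaip3 rose by 0.92 ± 0.20 and the repressor Atf3 by 1.35 ± 0.20. Inpp5d, the lipid phosphatase SHIP-1 that limits PI3K signalling, was at 13756, 12772 and 15009 in media and 1558, 2173 and 1599 with CpG, and fell by 2.92 ± 0.20 (limma adjusted p = 2.81e-07). Sigirr, an inhibitory receptor of the IL-1 and TLR family, changed by -1.83 ± 0.36 and the ERK phosphatase Dusp6 by -2.30 ± 0.41.

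AP-1 and immediate early factors also moved in both directions, with 5 of 23 higher and 8 lower, or 7 and 9 after quantile normalization and 10 and 7 after the shift to the same median. Jun, a DNA-binding subunit of AP-1, was at 2932, 3597 and 2831 in media and 31009, 34452 and 30776 with CpG, a rise of 3.34 ± 0.26 (limma adjusted p = 7.24e-07) and 10.1-fold. Batf, a partner of Jun proteins in lymphocytes, rose by 2.79 ± 0.24, from 1914 to 3394 in media to 15691 to 18274 with CpG. Neither gene's groups overlapped. Myc, the growth regulator, was at 10047, 10004 and 3100 in media and 37330, 34453 and 21096 with CpG, a rise of 2.13 ± 0.24. Egr3, a transcription factor induced by antigen receptors, was at 10765, 8817 and 6392 in media and 904, 1624 and 724 with CpG, and fell by 2.96 ± 0.26 (limma adjusted p = 1.51e-06), while its other probe set gave -0.17. Fos (-1.26 ± 0.25), Fosl2 (-1.25 ± 0.24), Egr1 (-1.66 ± 0.21) and the antiproliferative gene Btg2 (-1.97 ± 0.18) also fell.

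Cytokine genes held the 2 largest rises of the comparison. Il6, which drives plasma cell differentiation and acute inflammation, was at 794, 608 and 155 in media and 17208, 14970 and 12485 with CpG. It rose by 4.85 ± 0.33 (limma adjusted p = 2.18e-07), or 28.8-fold, and all CpG arrays were more than an order of magnitude above all media arrays. The RefSeq promoter of Il6 (GRCm38.p6, chr5:30012864-30013113, plus strand, the 250 bases before the start) is shown because this gene held the only kappaB match among the 10 cytokine genes that rose; capitals mark an AP-1 match (TGANTCA, 249 bases before the start) and a kappaB match (GGGA, any base, TTTCC, 44 bases before the start), both strands having been searched.
Il6: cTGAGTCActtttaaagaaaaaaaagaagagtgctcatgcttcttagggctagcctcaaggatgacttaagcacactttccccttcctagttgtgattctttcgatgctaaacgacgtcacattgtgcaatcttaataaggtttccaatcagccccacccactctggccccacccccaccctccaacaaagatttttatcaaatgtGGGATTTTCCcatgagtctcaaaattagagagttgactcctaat
In windows of the same 250 bases over all 27025 genes of the promoter table, 0.414% held the kappaB letters and 7.82% the AP-1 letters. The match is a description of the sequence and not a site shown to be used.

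Ifng, the interferon made mainly by T and NK cells, had media signals of 25.0, 31.2 and 14.2, all under the pseudocount, and CpG signals of 9730, 5232 and 1841. It rose by 5.56 ± 0.76 (limma adjusted p = 5.68e-05), a size that depends on the pseudocount because the media level is near 0. The CpG arrays were all above the media arrays and differed widely among themselves. The summed signal of 12 NK cell markers was 12770, 7082 and 4257 on CpG replicates 1 to 3, the same order as Ifng. That order was not particular to CpG. The sum was 16740, 15740 and 13150 in media, 11570, 7905 and 4626 with anti-IgM, and 13000, 9699 and 4612 with PL2-3. The T cell marker sum kept this order on the CpG arrays (9230, 8658 and 6813) but not in media (17720, 19550 and 22350). None of the 11 tested NK cell markers rose, and the NK receptor Klrd1 fell by 2.01 ± 0.38. Tbx21, a transcription factor that activates Ifng in lymphocytes, rose by 2.88 ± 0.47, from 663 to 2731 in media to 6403 to 13682 with CpG. The part of NK cells or T cells in the Ifng signal was not tested.

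Subunits of the IL-12 family rose in part. Il12b, the p40 subunit, was at 714, 602 and 424 in media and 7905, 8343 and 2399 with CpG (3.09 ± 0.43, limma adjusted p = 6.12e-05). Ebi3, a subunit of IL-27 and IL-35, was at 1622, 1238 and 2030 in media and 19460, 15364 and 22023 with CpG (3.49 ± 0.23, limma adjusted p = 2.11e-07). Groups did not overlap in either gene. Il12a, which encodes the p35 partner of p40, was at 4104, 4391 and 1154 in media and 2424, 2438 and 1182 with CpG, and did not pass the test (-0.51 ± 0.30, limma adjusted p = 0.22), though without media replicate 3 it was called lower (-0.94, limma adjusted p = 0.0211).

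The inflammatory cytokines Il1b (2.05 ± 0.22), Tnf (1.80 ± 0.38) and Lta (1.81 ± 0.34) rose, whereas Ltb, which encodes the membrane partner of lymphotoxin alpha, fell. Ltb was at 32960, 31358 and 48372 in media and 5291, 4907 and 10799 with CpG, a change of -2.48 ± 0.47 (limma adjusted p = 0.000868). All 3 CpG signals lay below all 3 media signals, with the Ambion array highest in each group. Il16 changed by -2.31 ± 0.38. Il10, an anti-inflammatory cytokine, was higher on all 3 CpG arrays, at 898, 1058 and 816 against 343, 392 and 505, but did not pass the test (1.04 ± 0.44, limma adjusted p = 0.0846). Limma called it higher without media replicate 3 (1.53, adjusted p = 0.0218), after quantile normalization (0.0264), after the shift to the same median (0.0209) and in a fit of the compared groups only (0.0214). Ifnb1, the type I interferon, had overlapping signals of 510 to 677 in media and 336 to 792 with CpG (-0.04 ± 0.35). Of 28 tested cytokines 10 rose and 3 fell, with a median of 0.57, or 0.78 relative to all tested genes.

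**Figure D2:**
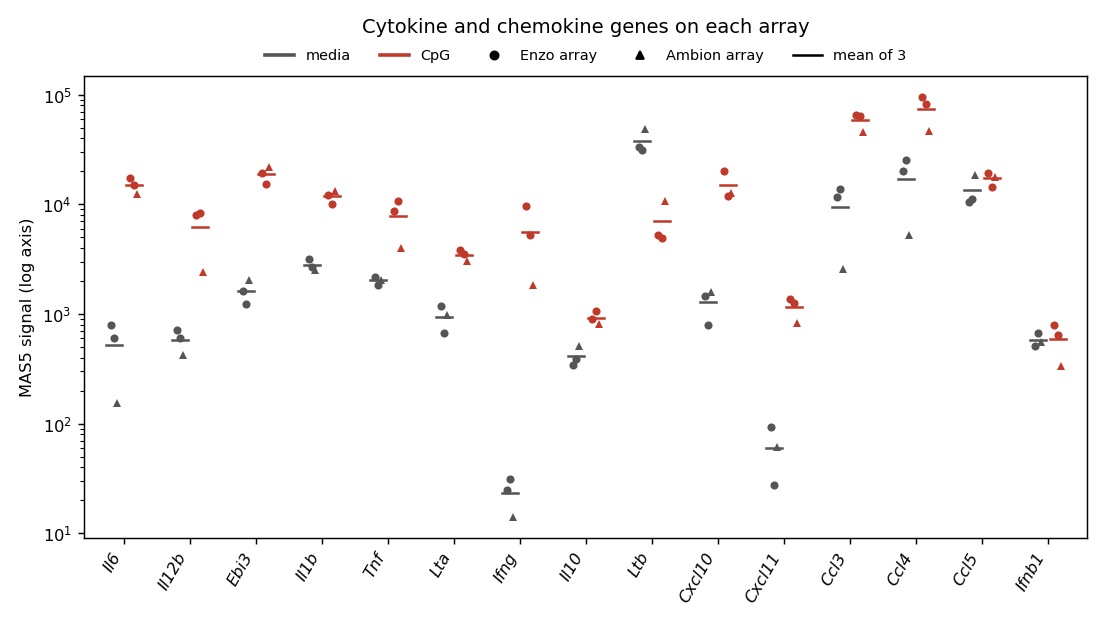
MAS5 signals (log axis) of 15 cytokine and chemokine genes on each media (grey) and CpG (red) array; circles are Enzo arrays, triangles Ambion arrays and lines the mean of 3. Il6, Il12b, Ebi3, Ifng, Cxcl10 and Ccl3 separate fully between the groups, Ltb goes the other way, and Ccl5 and Ifnb1 overlap.

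Of 16 chemokines 4 rose and 0 fell by limma, with 1 lower at an unadjusted p under 0.05. Cxcl10, which attracts cells bearing CXCR3, was at 1460, 794 and 1573 in media and 20176, 11860 and 12623 with CpG, a rise of 3.48 ± 0.50 (limma adjusted p = 9.28e-05). Cxcl11, another CXCR3 ligand, rose by 3.18 ± 0.57 from media signals of 28 to 93. Cxcl9, the remaining ligand of that receptor, overlapped between groups (-0.28 ± 0.49). Ccl3 was at 11757, 13841 and 2555 in media and 65102, 64064 and 45502 with CpG (2.93 ± 0.31), and Ccl4 rose by 2.35 ± 0.29. For both Ccl3 and Ccl4, chemokines that attract leukocytes, media replicate 3 was the lowest array. Ccl22 (0.06 ± 0.40) and Ccl5 (0.40 ± 0.29) were not called.

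Among interferon-stimulated genes 25 of 46 tested members rose and 0 fell, against 13.1% and 16.9% of all tested genes. Their median was 0.99, or 1.21 relative to all tested genes, and 31 were higher and 0 lower at an unadjusted limma p under 0.05. Without CpG replicate 1 the count of rises was 16. Mx2, an antiviral GTPase, was at 93, 166 and 79 in media and 3401, 1543 and 2077 with CpG, a rise of 3.64 ± 0.37 (limma adjusted p = 4.47e-06). Bst2, which tethers virus particles, was at 2282, 1766 and 1364 in media and 12196, 7142 and 10480 with CpG (2.41 ± 0.33). Irgm1, an immunity-related GTPase, was at 3624, 3947 and 4660 in media and 27363, 17868 and 12244 with CpG (2.14 ± 0.28, limma adjusted p = 4.05e-05). No group overlap was seen in these 3 genes. Ifi47, another such GTPase, rose by 2.19 ± 0.36. Ifit1, an RNA-binding antiviral protein, rose by 1.88 ± 0.54, with 8965, 3173 and 7723 against 1243, 1357 and 2331. Its call was lost when media replicate 1, media replicate 2, CpG replicate 1 or CpG replicate 3 was left out (limma adjusted p from 0.0559 to 0.0913). Ifit3 was higher by 1.09 ± 0.51 and did not pass (limma adjusted p = 0.12), while all 3 same-numbered pairs were higher with CpG. Without the anti-IgM+CpG arrays it was called (limma adjusted p = 0.0397, and 0.0453 with the replicate number as a block in place of the kit), as it was in a fit of the compared groups only (0.00858) and after the shift to the same median (0.0462).

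The rise was uneven over the 3 CpG arrays. All 25 genes were highest on CpG replicate 1, whereas 465 of all 1728 rising genes were. A highest replicate 1 was not particular to CpG. The summed signal of the list on replicates 1 to 3 was 373200, 272500 and 322200 with anti-IgM and 216600, 179300 and 194500 with PL2-3. It was 781400, 380900 and 323700 with anti-IgM+CpG, but 294500, 282200 and 340800 in media. CpG replicate 2 was lowest in 12 of the 25 genes (48%, against 51.1% of all rising genes). CpG replicate 3 was lowest in the other 13 (52%, against 23.6%). Both sets held genes known to be induced by type I interferon, Mx1, Ifit1 and Usp18 in the former and Oasl1, Zbp1 and Xaf1 in the latter. Gbp2 was at 6467, 2967 and 1625 on CpG replicates 1 to 3, and Ifng on the same arrays was at 9730, 5232 and 1841. Usp18 was at 12440, 4113 and 8018. The call of Gbp2 was lost without media replicate 1 or CpG replicate 1 (limma adjusted p = 0.0595 and 0.0682). That of Usp18 was lost without media replicate 2 or CpG replicate 1 or 3 (limma adjusted p from 0.0583 to 0.0796). This ordering was made after the values were seen and was not tested.

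**Figure D3:**
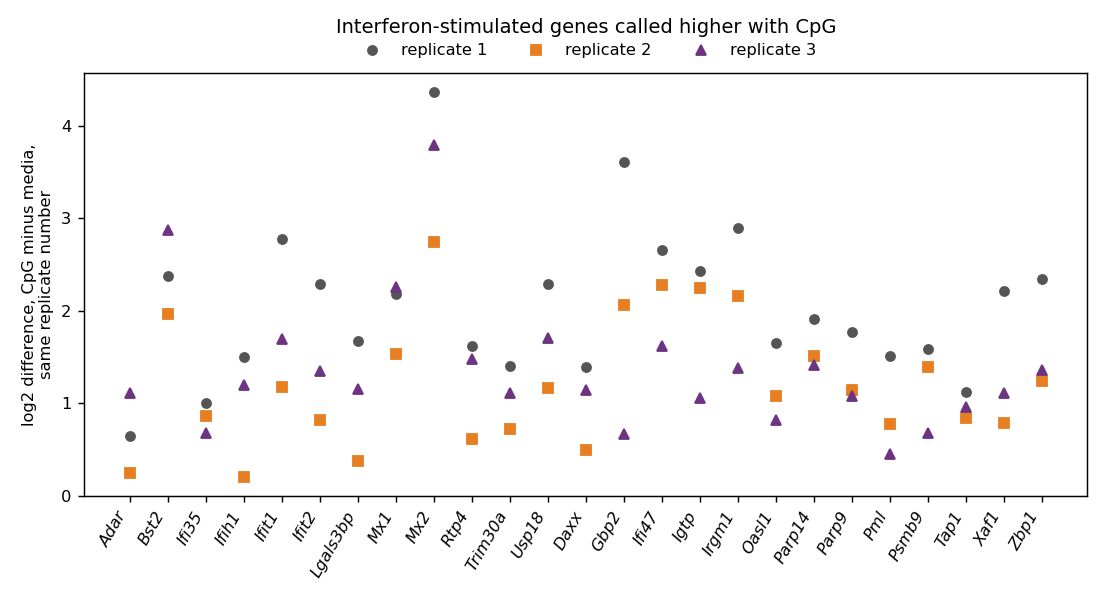
Difference in log2 signal between the CpG and the media array of the same replicate number (vertical) for the 25 interferon-stimulated genes that rose, ordered with the 12 genes lowest on CpG replicate 2 at the left (Adar to Usp18) and the 13 genes lowest on CpG replicate 3 at the right (Daxx to Zbp1). All differences are above 0.

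Promoters of 3 of these genes and of the chemokine Cxcl10 illustrate the motif letters of interferon-response elements. Capitals mark ISRE matches (GAAA, any 2 bases, GAAA on either strand; overlapping matches run together) and AP-1 matches. The sequences are RefSeq windows of GRCm38.p6, the 250 bases before the start: Cxcl10 at chr5:92348890-92349139 (minus strand), Ifit1 at chr19:34640639-34640888 (plus strand), Irgm1 at chr11:48871421-48871670 (minus strand) and Gbp2 at chr3:142620413-142620662 (plus strand).
Cxcl10: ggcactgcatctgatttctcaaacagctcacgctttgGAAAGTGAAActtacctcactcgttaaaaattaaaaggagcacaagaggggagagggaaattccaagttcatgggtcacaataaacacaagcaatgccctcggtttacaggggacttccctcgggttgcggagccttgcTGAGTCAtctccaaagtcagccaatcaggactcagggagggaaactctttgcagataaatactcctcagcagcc
Ifit1: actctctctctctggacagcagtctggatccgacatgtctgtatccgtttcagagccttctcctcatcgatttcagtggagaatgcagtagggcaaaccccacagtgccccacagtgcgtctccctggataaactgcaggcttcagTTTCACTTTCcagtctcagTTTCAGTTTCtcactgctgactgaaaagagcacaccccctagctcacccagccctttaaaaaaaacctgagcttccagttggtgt
Irgm1: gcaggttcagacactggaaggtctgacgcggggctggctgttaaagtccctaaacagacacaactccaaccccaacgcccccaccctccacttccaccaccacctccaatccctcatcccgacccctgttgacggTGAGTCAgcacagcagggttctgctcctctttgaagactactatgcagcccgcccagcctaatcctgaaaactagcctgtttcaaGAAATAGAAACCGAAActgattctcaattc
Gbp2: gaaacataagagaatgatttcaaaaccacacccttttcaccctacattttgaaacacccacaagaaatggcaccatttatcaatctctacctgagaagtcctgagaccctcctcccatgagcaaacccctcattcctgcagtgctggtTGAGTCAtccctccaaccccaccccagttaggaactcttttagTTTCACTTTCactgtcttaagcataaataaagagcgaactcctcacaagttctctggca
Of the 25 risen interferon-stimulated genes 18 had a promoter in the table; 6 of these (33.3%) held the ISRE letters and 4 the AP-1 letters. Over all genes with a promoter there 3.46% held the ISRE letters, and among tested genes that rose 3.73% did. Ifit1 held a match 104 and another 85 bases before the start. A match is a description of the window and shows no binding.

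Interferon regulatory factors and their partners moved with these genes in part: 7 of 19 rose and 3 fell, with 1 fall without CpG replicate 1 or 3, 5 after quantile normalization and 0 after the shift to the same median. Irf1, induced by interferon gamma and NF-kB, was at 9935, 11119 and 6767 in media and 42868, 40434 and 19550 with CpG, a rise of 1.83 ± 0.33 (limma adjusted p = 0.000606). Irf8, a B cell and dendritic cell factor, rose by 0.86 ± 0.20 and Stat5a by 1.35 ± 0.25. For Irf4, a factor of plasma cell differentiation, the brightest probe set gave 1.26 ± 0.25 and another gave -0.14; the mean of both was not called (limma adjusted p = 0.159). Irf7 (0.91 ± 0.29) and Irf9 (0.54 ± 0.17) rose by less. The call of Irf7 was lost without media replicate 1 or 2 or CpG replicate 1 or 3 (limma adjusted p from 0.0773 to 0.103), and that of Irf9 without media replicate 1 or 3 or CpG replicate 1 or 3 (0.0546 to 0.0808).

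Surface molecules of activation rose in 13 of 27 cases and fell in 3, or 5 without media replicate 1. Cd40, the receptor for T cell help, was at 5126, 6772 and 3274 in media and 22022, 17863 and 20919 with CpG, a rise of 2.04 ± 0.28 (limma adjusted p = 6.23e-05). Il2ra, the high-affinity chain of the IL-2 receptor, was at 1593, 1850 and 565 in media and 8931, 7159 and 5881 with CpG (2.52 ± 0.32). Tnfrsf13b, the BAFF and APRIL receptor TACI, was at 6721, 6077 and 10188 in media and 30478, 32856 and 39568 with CpG (2.18 ± 0.20). The groups did not overlap in these 3 genes. Tnfrsf13c, the other BAFF receptor, changed the opposite way (-0.92 ± 0.19), a call lost after the shift to the same median (limma adjusted p = 0.0921). Cd83 (1.17 ± 0.25), Cd44 (1.24 ± 0.19), Icam1 (1.23 ± 0.19) and Slamf1 (1.65 ± 0.29) rose as well. The costimulatory ligands Cd86 (10360, 13787 and 4504 in media and 10215, 12796 and 5563 with CpG) and Cd80 (449 to 856 and 282 to 758) overlapped between groups and were not called.

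In the MHC class II pathway of antigen presentation 7 of 9 genes fell and 0 rose by limma, and 0 were higher at an unadjusted p under 0.05; 4 fell after the shift to the same median. H2-Ob, a brake on peptide loading, was at 20443, 22121 and 21814 in media and 3319, 6736 and 3676 with CpG, and fell by 2.28 ± 0.25 on the log2 scale (limma adjusted p = 8.92e-06). Its partner H2-Oa changed by -2.06 ± 0.24, and the peptide loaders H2-DMa and H2-DMb2 by -1.81 ± 0.29 and -2.02 ± 0.33. The presenting chain H2-Ab1 moved less (-0.92 ± 0.17), and its call was lost after the arrays were shifted to the same median (-0.56, limma adjusted p = 0.121). Cd74, the invariant chain, overlapped between the groups (-0.48 ± 0.21) and was called lower after quantile normalization (-0.24, limma adjusted p = 0.0159).

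Genes of growth rose together. Of 49 ribosome biogenesis genes 47 rose and 0 fell by limma (49 and 0 at an unadjusted p under 0.05), with a median of 1.49. Without media replicate 3 the count of rises was 44 and on the Enzo arrays alone 42. In the 47 genes every CpG array was above every media array. The calls rest on these same arrays, and 3648 of all 3955 called genes had no overlap either, so this separation is not separate evidence. Polr1b, a subunit of RNA polymerase I, was at 2313, 2224 and 1012 in media and 11148, 8793 and 7192 with CpG, a rise of 2.31 ± 0.23 (limma adjusted p = 3.87e-06). Bysl, needed for the small ribosomal subunit, was at 3286, 3317 and 2970 in media and 15985, 13195 and 15088 with CpG (2.18 ± 0.20). Rrp9 (2.34 ± 0.21), Nop56 (1.69 ± 0.26) and fibrillarin, Fbl (1.09 ± 0.16), rose too. The smallest rise was that of nucleophosmin, Npm1 (0.47 ± 0.16), whose call was lost on the Enzo arrays alone (limma adjusted p = 0.238) and when any 1 array other than media replicate 2 was left out (0.0545 to 0.152). The E-box CACGTG, the letters bound by Myc with Max, lay in the promoter window of 4 of 42 risen members (9.52%), against 6.86% of all genes in the table and 11.8% of all tested genes that rose.

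Supply genes for this growth rose alongside. Aminoacyl-tRNA synthetases rose in 16 of 19 cases, with Farsa (1.74 ± 0.23) and Kars (1.47 ± 0.17) the largest. Genes of nucleotide, serine and one-carbon synthesis rose in 22 of 28 cases, with Srm, spermidine synthase, at 13408, 13286 and 8345 in media and 45588, 41135 and 54236 with CpG (2.02 ± 0.19, limma adjusted p = 2.32e-06). Shmt1 (1.96 ± 0.18), Mthfd1 (1.87 ± 0.20) and Ctps (1.71 ± 0.17) followed. Nuclear transport genes rose in 19 of 25 cases, among them the importin Ipo5 (1.29 ± 0.17), and heat shock proteins in 12 of 16, among them Hspd1 (1.18 ± 0.14). No gene of these 4 lists fell by limma, and 1 synthetase was lower at an unadjusted p under 0.05. The nuclear lamin Lmnb2 was at 155, 135 and 128 in media and 2486, 2664 and 2805 with CpG (3.67 ± 0.24, limma adjusted p = 2.11e-07).

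Metabolic lists were mixed. Hk2, the hexokinase of growing cells, was at 3098, 2491 and 2239 in media and 14225, 13090 and 13994 with CpG, a rise of 2.38 ± 0.14 (limma adjusted p = 1.59e-07), while Hk1 fell by 1.22 ± 0.23. Of 18 glycolysis and lactate export genes 7 rose and 5 fell, with 3 falls without media replicate 3 or CpG replicate 3 and 2 without CpG replicate 1. Fatty acid synthase, Fasn (1.48 ± 0.17), and the sterol enzymes Sqle (1.43 ± 0.18) and Idi1 (1.10 ± 0.19) rose, whereas the cholesterol exporter Abca1 was at 7567, 7100 and 6024 in media and 987, 1639 and 942 with CpG (-2.50 ± 0.27). With the mean of its probe sets Idi1 was not called (0.69, limma adjusted p = 0.0513). Slc7a3, a transporter of cationic amino acids, was among the largest rises (757, 735 and 1809 in media and 8389, 7964 and 18352 with CpG, 3.31 ± 0.26). In the unfolded protein response list 3 of 22 genes rose and 3 fell, with 1 fall without media replicate 3 and 7 after quantile normalization.

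**Figure D4:**
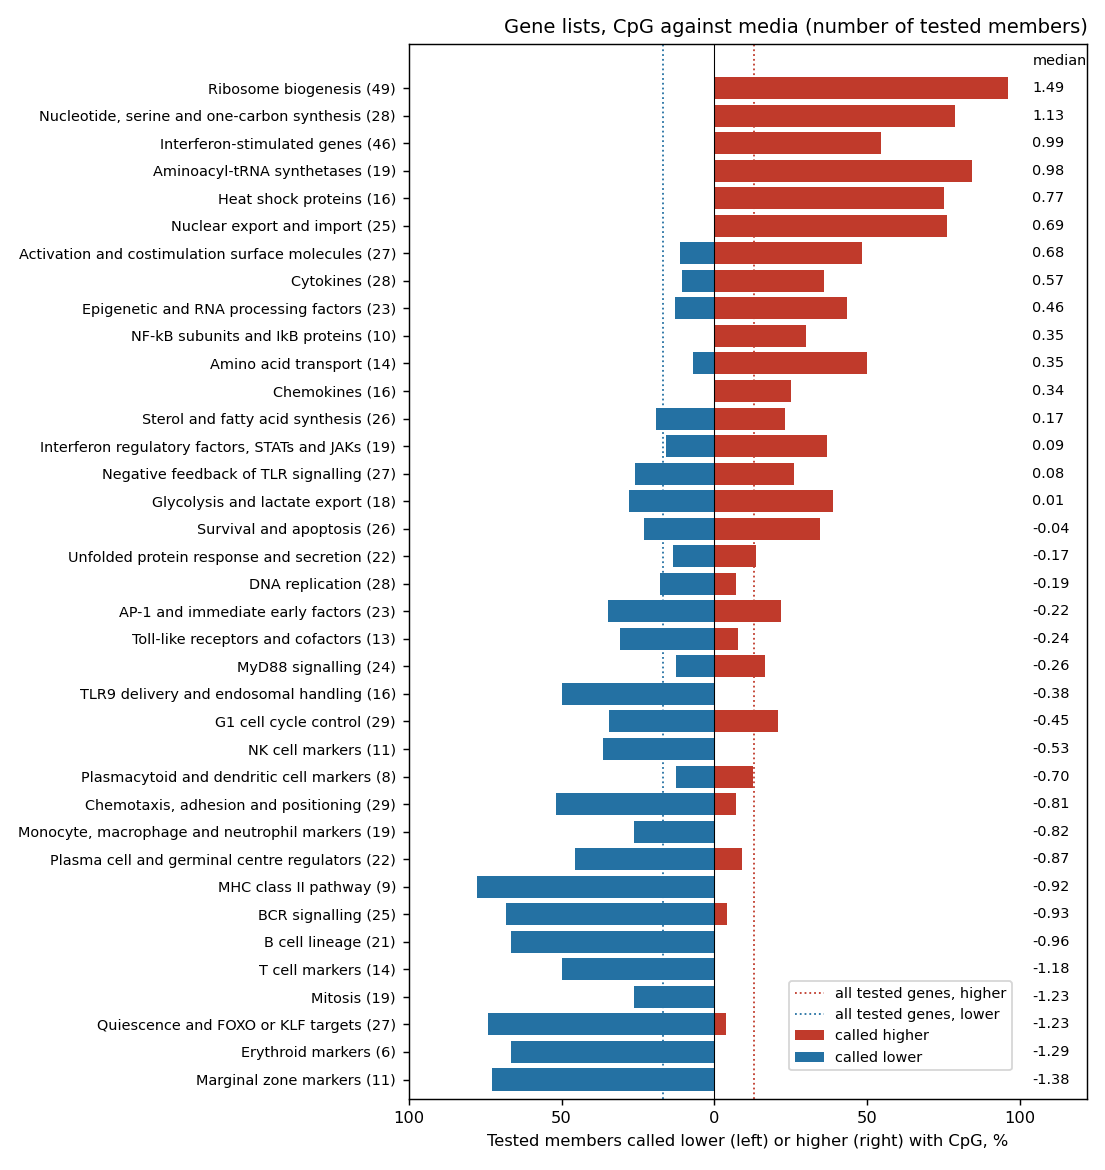
Share of the tested members of each gene list that fell (blue, to the left) or rose (red, to the right) with CpG, in percent, with the number of tested members in brackets and the median log2 change at the right; dotted lines mark the shares over all tested genes, 16.9% and 13.1%. Ribosome biogenesis has the highest median (1.49) and marginal zone markers the lowest (-1.38).

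Among cell cycle genes, Ccnd2, Cdk4 and Cdk6 rose and several brakes on G1 fell. Ccnd2, the cyclin D of B cells, was at 10938, 10511 and 5987 in media and 64715, 40191 and 54190 with CpG, a rise of 2.55 ± 0.26 (limma adjusted p = 5.73e-06). Its kinases Cdk6 (1.81 ± 0.28) and Cdk4 (1.24 ± 0.15) rose as well. Ccnd3, another cyclin D, was not called on its brightest probe set (-0.20 ± 0.19), while another of its 3 probe sets gave -2.21 and the mean of all 3 was called lower (-1.14, limma adjusted p = 0.000989). Cdkn1b, the inhibitor p27, was at 5491, 5562 and 11956 in media and 825, 1905 and 1913 with CpG (-2.25 ± 0.37), and the retinoblastoma gene Rb1 changed by -2.02 ± 0.17 and its relative Rbl2 by -1.87 ± 0.22. No group overlap was seen in these genes other than Ccnd3. In the G1 list 6 of 29 genes rose and 10 fell.

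Genes of DNA replication and mitosis did not rise as a group. Of 28 replication genes 2 rose, Pcna (0.57 ± 0.14) and the uracil glycosylase Ung (0.98 ± 0.18), and 5 fell. Without media replicate 3 the replication list had 4 rises and 2 falls, and without CpG replicate 3 it had 3 falls; the rises numbered 5 after the shift to the same median or without the anti-IgM+CpG arrays. Of 19 mitosis genes 0 rose and 5 fell by limma, and 14 were lower at an unadjusted p under 0.05. The falls numbered 1 without media replicate 3 or CpG replicate 3, 2 without CpG replicate 1, 8 without media replicate 2, 2 after the shift to the same median and 14 when the anti-IgM+CpG arrays were left out of the fit. Cenpa, the centromeric histone, was at 8018, 8565 and 10620 in media and 2802, 2379 and 1537 with CpG (-2.01 ± 0.33, limma adjusted p = 0.000287). Cdk1 was at 2522, 3027 and 5876 in media and 1666, 1408 and 978 with CpG and did not pass (-1.38 ± 0.51, limma adjusted p = 0.0503; 0.049 with the replicate block, in which the replicate number replaces the kit). Media replicate 3 was the highest array for Cdk1, Cenpa and the mitosis list as a whole.

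Of 26 survival and apoptosis genes 9 rose and 6 fell. Without CpG replicate 3 the falls numbered 4, and after the shift to the same median 2. Bcl2 was at 2108, 1997 and 1453 in media and 5287, 4314 and 6440 with CpG, a rise of 1.49 ± 0.24 (limma adjusted p = 0.000222). Cflar, the inhibitor of caspase-8, was at 3795, 4338 and 2883 in media and 17385, 16671 and 14003 with CpG (2.12 ± 0.23), and Gadd45b, an NF-kB target that restrains cell death, rose by 2.31 ± 0.30. The kinase Pim2 (1.69 ± 0.26) and the adaptor Traf1 (1.64 ± 0.13) rose too. Gadd45a changed the opposite way to Gadd45b (-2.11 ± 0.39). Mcl1 changed by -0.90 ± 0.15 on its brightest probe set and between -1.18 and 0.001 on its others, a call lost after the shift to the same median (limma adjusted p = 0.11). The pro-apoptotic Bmf gave -2.34 ± 0.33 on its brightest probe set and 0.55 on another. The mean of all its probe sets, including any that did not pass the filter, was not called (-0.71, limma adjusted p = 0.157).

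B cell identity and receptor signalling genes fell. Of 21 B lineage genes 14 fell and 0 rose by limma, with 0 higher at an unadjusted p under 0.05, and of 25 genes of B cell receptor signalling 17 fell and 1 rose, against 16.9% and 13.1% of all tested genes. After the shift to the same median the falls numbered 9 and 11. Fcrla, an intracellular Fc receptor-like protein of B cells, was at 10583, 9306 and 18981 in media and 289, 534 and 1144 with CpG, and fell by 4.26 ± 0.34 on the log2 scale (limma adjusted p = 7.65e-07). Siglecg, an inhibitory lectin of the B cell receptor, was at 11409, 13616 and 15033 in media and 1781, 1305 and 1586 with CpG (-3.04 ± 0.24). Pou2af1, the coactivator OBF-1 that germinal centres need, was at 47173, 51968 and 53015 in media and 8222, 7839 and 8777 with CpG (-2.60 ± 0.17, limma adjusted p = 2.12e-07). All CpG arrays lay below all media arrays in these 3 genes.

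The inhibitory side of the receptor and its signal chains were both among the falls. The inhibitory receptors Cd22 (-2.02 ± 0.35) and Fcgr2b (-2.45 ± 0.32) fell, as did the signal chains Cd79a and Cd79b. Cd79a was at 58350, 80259 and 40925 in media and 22039, 19823 and 8664 with CpG (-1.88 ± 0.27), and Cd79b changed by -1.74 ± 0.37. Fcmr, the receptor for IgM, was at 39582, 36488 and 29590 in media and 4842, 4822 and 5804 with CpG (-2.75 ± 0.26). Cd81, a coreceptor component, was the member that rose (0.97 ± 0.15). Ms4a1, which encodes CD20, did not move with the others: 38626, 39553 and 41562 in media and 38914, 39706 and 44638 with CpG (0.04 ± 0.18), with -0.39 on another probe set. Pax5 was at 1168 to 1230 in media and 791 to 1326 with CpG and was not called (-0.24 ± 0.24).

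Neither Prdm1 nor Bcl6 was called. Prdm1, which encodes Blimp-1, was at 1140, 1028 and 1522 in media and 1104, 1172 and 685 with CpG (-0.31 ± 0.26, limma adjusted p = 0.394). Bcl6, the germinal centre regulator, was at 3997, 4112 and 7287 in media and 3669, 4840 and 6466 with CpG (-0.02 ± 0.22). The groups overlapped in both. Id3, an inhibitor of E proteins, fell by 2.54 ± 0.33 and Mef2c by 1.48 ± 0.23, and in this list 10 of 22 genes fell and 2 rose (1 without CpG replicate 2). The falls in the list numbered 4 without media replicate 3, 3 without CpG replicate 3, 6 without CpG replicate 1 and 5 after the shift to the same median.

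Genes that mark resting lymphocytes fell in 20 of 27 cases and rose in 1. The falls numbered 14 after the shift to the same median or without CpG replicate 3. They numbered 16 without media replicate 2, 17 without media replicate 1 or 3 or CpG replicate 1, and 20 without CpG replicate 2. Ets1, which keeps B cells from differentiating, was at 29918, 33359 and 23819 in media and 4016, 6777 and 5461 with CpG (-2.42 ± 0.35, limma adjusted p = 8.5e-05). Tob1 (-1.91 ± 0.23), an antiproliferative protein, Foxo3 (-1.91 ± 0.32) and Txnip (-1.67 ± 0.36) fell as well. Foxo1 was at 8817, 7756 and 10367 in media and 5833, 5403 and 9371 with CpG and was not called (-0.42 ± 0.17), except after quantile normalization (-0.59, limma adjusted p = 0.0159). Mxd4, which opposes Myc at E-boxes, was at 3401, 2654 and 7275 in media and 153, 125 and 336 with CpG (-3.95 ± 0.59, limma adjusted p = 0.000113), so Mxd4 and Myc changed in opposite directions. Cyclin G2, Ccng2, a FOXO target, was at 7051, 6814 and 8774 in media and 683, 714 and 504 with CpG (-3.43 ± 0.33).

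Genes of chemotaxis, adhesion and positioning changed in both directions. Ccr7, which guides B cells to the T cell zone, was at 42698, 49761 and 14267 in media and 73680, 78144 and 50698 with CpG, a rise of 1.09 ± 0.25 (limma adjusted p = 0.00376). Ccr6 was at 15041, 16020 and 19471 in media and 2081, 2343 and 2117 with CpG (-2.90 ± 0.33), and the lipid receptor S1pr4 at 8892, 8835 and 11854 and at 1234, 1079 and 1404 (-2.91 ± 0.30). The CpG arrays did not overlap with the media arrays in these 3 genes. The cannabinoid receptor Cnr2 (-2.76 ± 0.38) and Cxcr4 (-1.95 ± 0.40) fell, while the follicle receptors Cxcr5 (0.35 ± 0.16) and Gpr183 (-0.15 ± 0.21) were not called. In this list 15 of 29 genes fell and 2 rose, and 1 rose when any 1 array other than CpG replicate 2 was left out. After the shift to the same median 10 fell and 5 rose, Cxcr5 among them (0.71, limma adjusted p = 0.0255). Of 11 marginal zone markers 8 fell, among them S1pr3 (-2.25 ± 0.21) and the complement receptor Cr2 (-1.52 ± 0.20); the falls numbered 4 without media replicate 3 or CpG replicate 3, and 3 after the shift to the same median.

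Some of the largest changes lay outside the lists. Gbp6, a guanylate-binding protein induced by interferon, rose by 3.25 ± 0.66. Haao, an enzyme of tryptophan breakdown, was at 5092, 5567 and 6664 in media and 141, 868 and 118 with CpG (-4.09 ± 0.67). Rab30, a Golgi GTPase, was at 1753, 1624 and 3365 in media and 125, 32 and 44 with CpG (-4.01 ± 0.52, limma adjusted p = 3.92e-05). None of these genes' groups overlapped. Cd7 (-3.82 ± 0.53), the adaptor Lax1 (-3.74 ± 0.40) and the acetate enzyme Acss1 (-3.60 ± 0.37) were among the other large falls.

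Which changes differed from those of B cell receptor stimulation was asked by setting the same CpG arrays against anti-IgM; the CpG arrays are shared by both comparisons. Between CpG and anti-IgM 843 genes differed, 6.41% of those tested, with 2.57% higher and 3.84% lower in CpG. Leaving out 1 array at a time gave 496 to 703 genes: 496 without CpG replicate 1, 548 without CpG replicate 3, 559 without anti-IgM replicate 2 and 520 without anti-IgM replicate 3. Il6 was at 767, 243 and 344 with anti-IgM and was 4.94 ± 0.33 higher with CpG (limma adjusted p = 1.1e-07). Ebi3 was at 1271, 910 and 908 with anti-IgM (4.11 ± 0.23 higher with CpG) and Jun at 1773, 3181 and 1344 (3.97 ± 0.26 higher). Ifng was at 394, 273 and 109 with anti-IgM and 3.90 ± 0.76 higher with CpG. In these 4 genes no CpG array overlapped with an anti-IgM array. They were picked by size of difference on these same arrays, so this separation is not separate evidence. The share of all tested genes without overlap was not counted for this comparison.

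Several genes described against media were also higher with CpG than with anti-IgM. Bcl2 was at 580, 640 and 830 with anti-IgM, 2.83 ± 0.24 lower than with CpG (limma adjusted p = 1.17e-06), and Pim2 differed by 2.89 ± 0.26. Tnfrsf13b (2.55 ± 0.20), Cd40 (1.92 ± 0.28), Socs3 (2.74 ± 0.21), Nfkbiz (2.29 ± 0.20) and Batf (2.63 ± 0.24) were all higher with CpG. Ifnlr1, the receptor chain for lambda interferons, was at 321, 508 and 338 with anti-IgM, 469, 547 and 756 in media and 5051, 4976 and 3024 with CpG (3.24 ± 0.33 against anti-IgM). Tmcc3 (3.51 ± 0.30) and Dennd3 (3.34 ± 0.18) were among the 8 largest such differences in the genes also called against media.

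Among the 8 genes picked as most below anti-IgM with CpG, all of them also called against media, S1pr3, Egr3 and Ephx1 differed most. S1pr3, a sphingosine phosphate receptor, was at 10172, 11455 and 10455 with anti-IgM, 2952, 2479 and 3271 in media and 631, 685 and 372 with CpG, a difference of -4.11 ± 0.21 (limma adjusted p = 2.24e-08). Egr3 was at 17758, 16824 and 13363 with anti-IgM (-3.86 ± 0.26). Rgs2, a brake on G protein signals, was at 38477, 42957 and 29309 with anti-IgM, 28173, 25704 and 16835 in media and 3490, 3912 and 1590 with CpG (-3.67 ± 0.23). For these 3 genes media lay between the stimuli. Rgs13 (-3.65 ± 0.43) and Rgs16 (-3.61 ± 0.34) of the same family differed too; the fall of Rgs16 against media was lost without media replicate 3 (limma adjusted p = 0.0632) or CpG replicate 3 (0.07). Ephx1 (-3.83 ± 0.29), Tmem51 (-3.54 ± 0.23) and Ccr6 (-3.37 ± 0.33) were lower as well. Cd86, not called against media, was at 20491, 29389 and 19026 with anti-IgM and differed by -1.32 ± 0.27 (limma adjusted p = 0.00582), with all anti-IgM arrays above all CpG arrays.

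**Figure D5:**
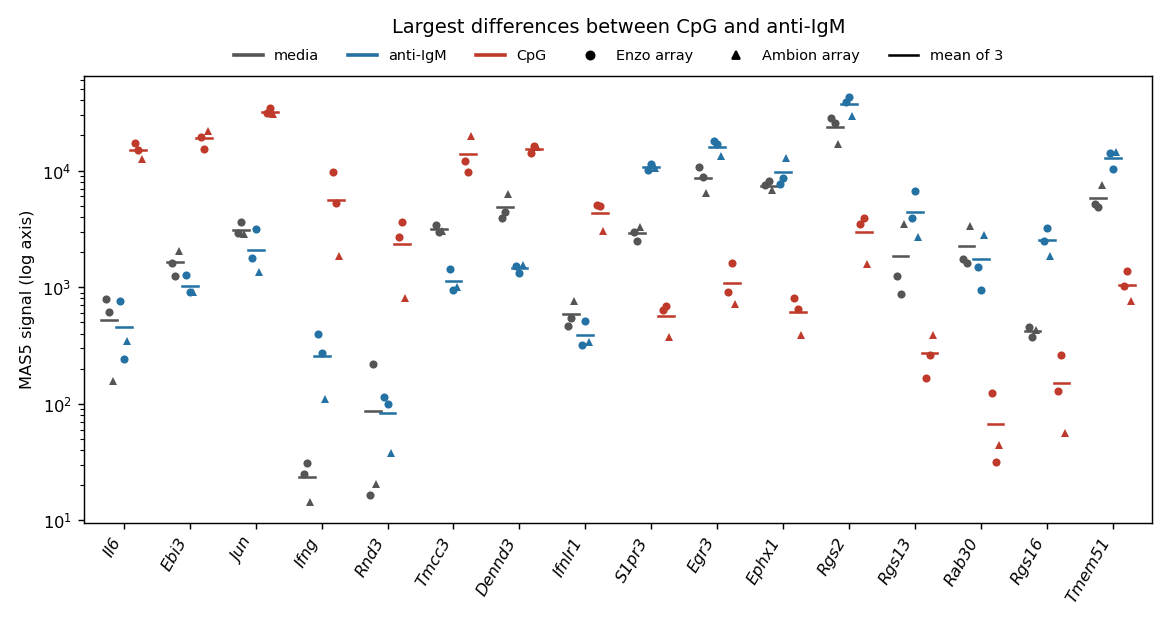
MAS5 signals (log axis) on each media (grey), anti-IgM (blue) and CpG (red) array for 8 genes above and 8 genes below anti-IgM with CpG. They are the largest called differences in each direction among genes also called against media. The choice further required the same direction in all 3 same-numbered pairs and no other probe set going the opposite way. Circles are Enzo arrays, triangles Ambion arrays and lines the mean of 3. From Il6 to Ifnlr1 the CpG arrays are highest, and from S1pr3 to Tmem51 they are lowest. The choice of genes rests on these same arrays and largely fixed this pattern, so it is not separate evidence.

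For the growth genes no difference between the stimuli was called. In the lists for ribosome biogenesis, aminoacyl-tRNA synthetases, nucleotide synthesis, nuclear transport and heat shock proteins 0 members were called higher or lower with CpG than with anti-IgM by limma. At an unadjusted p under 0.05, 9 of the 49 ribosome biogenesis genes were higher with CpG and 0 lower, and the counts were 3 and 1 for the synthetases, 5 and 1 for nucleotide synthesis, 5 and 1 for nuclear transport, and 0 and 1 for heat shock proteins. Myc was at 32652, 39369 and 21811 with anti-IgM, a difference of -0.02 ± 0.24 from CpG, and Polr1b at 7810, 7802 and 6722, a difference of 0.26 ± 0.23. Bysl differed by 0.67 ± 0.20 (limma adjusted p = 0.0545). Ccl3 (0.40 ± 0.31), Ccl4 (0.32 ± 0.29) and Siglecg (-0.36 ± 0.24) were not called either; a p that misses the threshold does not show that the stimuli act alike. In 46 interferon-stimulated genes 10 were higher with CpG than with anti-IgM and 0 lower (15 and 0 at an unadjusted p under 0.05), and in 23 AP-1 and immediate early genes 3 were higher and 11 lower.

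Whether the change with CpG differed between labelling kits was tested on the 12 arrays other than anti-IgM+CpG. The kits differed for 49 genes, 0.372% of those tested, and 1552 had an unadjusted limma p under 0.05. Without the intensity trend of eBayes 0 genes were called and 1448 had an unadjusted p under 0.05. Of the 3955 genes that changed with CpG, 3952 changed in the same direction in the Ambion pair. That pair was part of the fit that made the calls, so this count cannot tell whether the kits agree. The Ambion kit has 1 array per group, so kit and array cannot be told apart in this test.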

How the data were processed

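Each sample's RNA was purified on RNeasy columns (Qiagen) and given a biotin label, per the labels' protocols, and went onto 1 array. The deposited values are MAS5 signals, a linear intensity that MAS5 scales for each array as a whole, per the submitters' processing notes, with no version given; the target value is not given in the sources used here. Because such scaling fixes an overall level, a shift of many genes 1 way moves all others, which is why quantile and median scaling were tried. Detection calls were not used here.

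Of 45037 probe sets besides 64 controls, 34945 had 1 gene symbol in the platform annotation, 932 several and 9160 none listed; 34741 matched the RefSeq gene table. For each of 18193 genes the probe set brightest on average was kept. Genes reaching an array's median signal on 3 or more of the 15 arrays, 13160 in number, were tested on log2(signal + 75.2), the 20th percentile. 1 limma model held the 5 groups and the kit over all 15 arrays (9 residual degrees of freedom) and was tested with eBayes with an intensity trend, two-sided. The smallest exact permutation p for 3 against 3 arrays is 0.1, so no exact test was run. The procedure was tested on simulated data. Computations used R 4.3.3, limma 3.58.1, Python 3.11.15 and matplotlib 3.10.9.

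Lists were described by counts and medians, with no test of a list. The 37 lists held 833 names (a gene can stand in several lists), of which 781 had a probe set of 1 symbol and 763 passed the filter and were tested; counts are over the tested ones only. The members and lists were chosen with earlier results of these data known. Named genes were the 15 largest rises and falls, the core members of each list and up to 4 further called members per list and direction. The 8 largest called differences from anti-IgM in each direction were added, taken only among genes called against media. The choices by size required the same direction in all 3 same-numbered pairs and no other probe set going the opposite way. Immunoglobulin segments and unnamed genes were left out of the choices by size. Not all named genes are printed. Pairing by replicate number was checked on deviations from group means, with anti-IgM+CpG left aside. The correlation exceeded 0.1 in all 18 pairs sharing a number (media with CpG 0.132 to 0.381) and in 8 of 36 others. All 8 set replicate 1 against replicate 2, which share the Enzo kit, while pairs of different kits were all negative. Media replicate 1 gave 0.132 with CpG replicate 1 and 0.085 with CpG replicate 2, and media replicate 2 gave 0.237 and 0.166. The check therefore cannot tell pairing by number from the kit. Motifs were counted in RefSeq promoters, 250 bases before the start.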

Additional observations from a re-analysis of the deposited data

Results flagged for a closer look

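The change with CpG differed between the labelling kits (limma adjusted p under 0.05) for 7 of the named genes. Since the Ambion value is 1 pair of arrays, kit, array and replicate cannot be told apart, and without the intensity trend the limma adjusted p of these 7 genes lay between 0.158 and 0.207. The Ambion change minus the Enzo change was -2.90 for Birc5 (-0.90 on Enzo and -3.79 on Ambion arrays), -2.52 for Rrm2, -2.25 for Mki67 and -2.18 for Ccnb2, all genes of dividing cells. For all 4 the Ambion media array, media replicate 3, had the highest signal of the 6 arrays, for example 15688 for Birc5 against 3614 and 4192 on the other media arrays. Acss1 gave -2.07 (-2.91 and -4.98), and its Ambion CpG signal was 172. Tbx21 gave -2.51 (3.71 and 1.21), with media signals of 965, 663 and 2731. Ccl3 gave 1.78 (2.33 and 4.12), with its lowest media signal, 2555, on the Ambion array. In Acss1, Tbx21 and Ccl3 both kits gave the same direction.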

How the results depend on the processing

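The number of genes called in CpG against media, 3955, lay between 3077 and 4674 under the scaling, pseudocount, filter, labelling, trend and probe set alternatives, was 2474 on the Enzo arrays alone and 2040 with a 2-fold minimum. It lay between 2846 and 3469 without 1 array. The replicate block gave 3984 and changed the calls of 3 of the named genes, Cdk1, Hmgcs1 (limma adjusted p = 0.0308) and Cd3d (0.0377), which became called. With the block and without the anti-IgM+CpG arrays the count was 4674, and 14 named genes gained a call, among them Cdk1, Ifit3, Mki67, Top2a, Mcm6, S100a8, C1qa and Adgre1. CpG against anti-IgM, 843, gave 540 on the Enzo arrays, 521 with a 2-fold minimum and 496 to 703 without 1 array; after the arrays were shifted to the same median it was 563, and it was 1061 with the actin-based labelling term, 1149 without the anti-IgM+CpG arrays, 1187 in a fit of the compared groups only and 1213 with the replicate block without the anti-IgM+CpG arrays. The difference between kits, 49 genes, gave 0 without a trend, 32 with no filter and 31 after quantile normalization. Of the named genes called, 63 lost the call on the Enzo arrays alone, 50 without CpG replicate 3, 45 without media replicate 3, 45 without CpG replicate 1 and 43 after the shift to the same median. Mapk8 reversed, from 0.56 on its brightest probe set to -0.038 with the mean of all probe sets. The cause of these changes was not tested. Signal near the pseudocount limits the size of change of dim genes such as Ifng, Rab30 and Mx2.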
